A study of Mus musculus with 9 samples.

Results

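Arc and 9 transcription factor genes that neurons switch on rapidly when they are active were followed across the libraries. They are Arc, Egr1, Egr2, Egr3, Egr4, Fos, Fosb, Junb, Nr4a1 and Npas4, picked by gene symbol from the authors' expression table, and 10 of 10 were among its 14444 genes. The RNA was total RNA of mouse prefrontal cortex, depleted of ribosomal RNA, from animals of postnatal weeks 5 to 8. The 3 groups were wild-type mice injected with saline, mice of the genotype labelled SHANK3 injected with saline (called saline mutants below) and mice of that same genotype treated with UNC0642, with 3 libraries in each. UNC0642 inhibits EHMT1 and EHMT2, enzymes that methylate lysine 9 of histone H3, and was given at 1 mg/kg into the peritoneum once a day for 3 days. SHANK3 is a scaffold protein of the postsynaptic density of excitatory synapses. The labels name no allele, so it is not known here which exons are lost or whether mice carried 1 or both mutant copies, and they leave it unsaid if each library is its own animal. The p-values below thus rest on library-to-library spread, which may be technical in part or whole.

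These genes are immediate early genes: synaptic input raises calcium in the neuron, kinases of the CaM kinase and MAP kinase families act on transcription factors already present (CREB, SRF with its ELK partners, MEF2), and transcription starts without new protein synthesis. The transcripts are short-lived, so their level follows the recent activity of the tissue, including handling and the time of day. Arc is the exception among the 10 in being no transcription factor: its messenger travels into dendrites, and its protein promotes removal of AMPA receptors from synapses. EGR proteins are zinc finger factors, FOS, FOSB and JUNB combine into AP-1, NR4A1 is an orphan nuclear receptor, and NPAS4 is a factor that responds to calcium entry and shapes inhibitory synapses.

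The windows of 250 bases upstream of the annotated start site were read for 7 of the 10 genes, from RefSeq sequence on build GRCm38.p6 matched by symbol, covering 11 start sites. Arc, Egr1 and Egr3 had no entry. Motifs were searched on both strands: the cAMP response element (CRE) TGACGTCA, its core TGACG, which every full element also holds, the AP-1 site TGANTCA, the EGR site GCGNGGGCG, the TATA box TATAAA, and the CArG box, to which SRF binds. The core was found in 9 of the 11 windows, against 17.8% of 32851 windows of the same length, and the full element in 0 of the 11, against 1.55%. Egr2 has 5 of the 11 windows, some of which overlap, and 2 of these hold no core; the other 6 genes have 1 window each, with the core. An EGR site was found in 2 windows, of Fosb and Nr4a1 (4.7% of all windows), a CArG box in 4, all of Egr2 (1.47%), a TATA box in 1, of Fos (12.4%), and an AP-1 site in 0 (6.75%). A match describes letters and is not evidence of binding.

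5 windows are shown, with matched letters in capitals, 5′ to 3′ and ending at the base before the start site: Junb and Nr4a1, which were higher in the saline mutants, Fos as the partner of Junb in AP-1, Npas4, which had the widest span within a group, and Egr2 with its CArG box between core sites.
Junb (chr8:84978749-84978998, minus strand): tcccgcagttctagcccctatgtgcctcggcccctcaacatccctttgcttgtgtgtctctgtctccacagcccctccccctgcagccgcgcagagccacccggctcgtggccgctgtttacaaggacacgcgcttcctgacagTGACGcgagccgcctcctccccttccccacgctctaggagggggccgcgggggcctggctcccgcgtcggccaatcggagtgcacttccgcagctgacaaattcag
Nr4a1 (chr15:101266596-101266845, plus strand): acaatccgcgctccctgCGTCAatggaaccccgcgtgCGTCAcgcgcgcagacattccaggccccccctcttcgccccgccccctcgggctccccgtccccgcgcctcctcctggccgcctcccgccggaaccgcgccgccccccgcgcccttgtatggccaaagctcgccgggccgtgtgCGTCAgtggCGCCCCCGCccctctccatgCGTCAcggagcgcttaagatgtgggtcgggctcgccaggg
Fos (chr12:85473640-85473889, plus strand): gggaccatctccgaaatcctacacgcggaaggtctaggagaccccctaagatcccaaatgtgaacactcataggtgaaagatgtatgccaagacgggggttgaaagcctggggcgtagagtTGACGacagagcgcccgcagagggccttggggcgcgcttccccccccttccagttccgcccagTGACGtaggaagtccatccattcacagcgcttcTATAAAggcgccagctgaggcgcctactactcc
Npas4 (chr19:4989972-4990221, minus strand): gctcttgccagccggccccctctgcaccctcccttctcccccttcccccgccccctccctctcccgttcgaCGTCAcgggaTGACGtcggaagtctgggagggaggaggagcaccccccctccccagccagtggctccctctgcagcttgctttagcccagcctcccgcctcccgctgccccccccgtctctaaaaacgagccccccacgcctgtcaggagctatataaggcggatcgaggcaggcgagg
Egr2, start site 3 (chr10:67537619-67537868, plus strand): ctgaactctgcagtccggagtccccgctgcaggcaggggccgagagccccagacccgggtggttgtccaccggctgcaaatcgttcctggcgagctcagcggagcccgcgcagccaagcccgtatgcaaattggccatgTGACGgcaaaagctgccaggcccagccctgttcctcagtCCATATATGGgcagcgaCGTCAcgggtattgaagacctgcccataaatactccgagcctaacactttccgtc
The Nr4a1 window holds the core at 4 places, at positions -233, -213, -69 and -40, with an EGR site at -60, counted in bases from the start site to the first base of the match. The Junb window holds the core once, at -106. The Npas4 window holds it at -179 and -169. GC content was 66.4% for Junb, 74.4% for Nr4a1, 58.4% for Fos and 68.8% for Npas4, against a median of 52.4% over all windows.

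The values in the table are not plain CPM. Gene by gene, the average log2 value over 5 libraries (the wild type and UNC0642 replicates 2 and 3) was made equal to that of the other 4 (the saline mutants and UNC0642 replicate 1), to within 2.5e-09, so part of any difference between mutant and wild type was removed before deposition. With those averages equal, the deposited difference between saline mutant and wild type follows from where the UNC0642 libraries lie around them. It is no separate reading of the genotype. Whole reads could be solved for behind the values of 14444 of 14444 genes, and these recovered reads, 12035098 to 16165483 per library, carry no such adjustment. Both are given below: a "deposited value" is the authors' number, and RPM are recovered reads scaled to the total of their library. The recovered reads have a problem of their own, a division of the libraries that puts UNC0642 replicate 3 with the wild type and the other 5 mutant libraries together; it makes up the first principal component, with 52.0% of the variance. Genotype and this division cannot be told apart except through that 1 library. The excitatory neuron markers of cortex were measured for 7 of 7, at a summed 7630 to 8730 RPM. Of the 4 choroid plexus genes, Kl was measured at 2.17 to 3.7 RPM, and Ttr, Folr1 and Clic6 are not in the table.

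In the deposited values, none of the 10 genes was called between any groups. Limma gave adjusted p-values of 1 for the members between saline mutant and wild type and between UNC0642 and saline mutant, and of 0.576 to 0.922 between UNC0642 and wild type. Over all genes 0 were called as well (percent called 0 in each comparison), with 19, 281 and 1238 genes at an unadjusted p under 0.05, or 0.132%, 1.95% and 8.57%. Of the members, Arc was under that limit between saline mutant and wild type, and Arc and Egr3 between UNC0642 and wild type. The 0.132% comes after the averages were equalized, which removed part of that difference for every gene. It is therefore no background against which to read Arc. The 2 equalized sets also split the UNC0642 libraries. The deposited differences, p-values and shares of both UNC0642 comparisons are thus altered as well. In the recovered reads, 4 of the 10 were called between saline mutant and wild type: Arc and Egr3 were lower, Junb and Nr4a1 higher. That comparison called 11.9% of all genes, 5.13% higher and 6.81% lower, and the members' count is to be read against that share. The values in groups that share libraries between comparisons are set side by side below and are not independent.

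**Figure D1:**
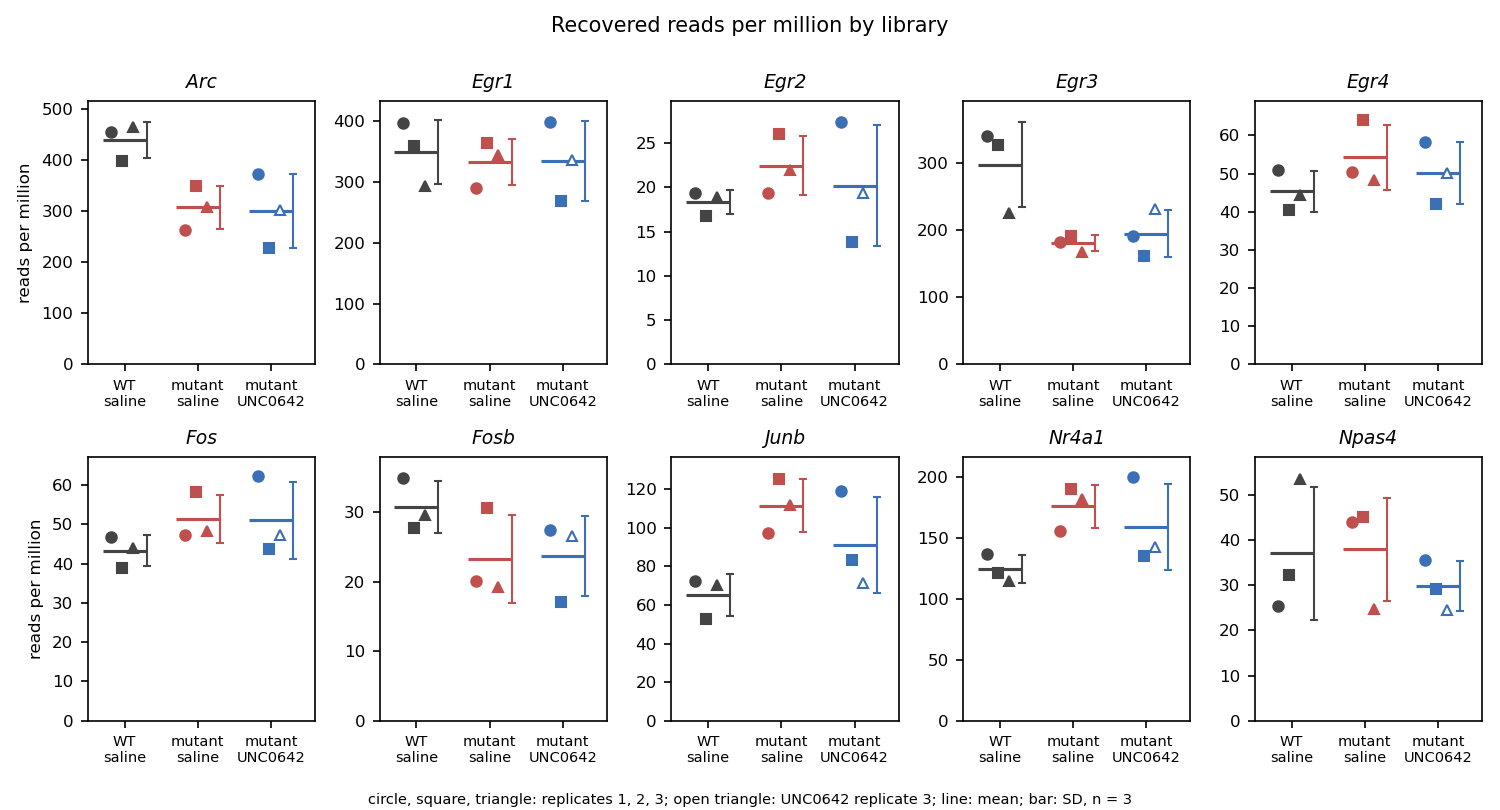
RPM of recovered reads (vertical axes, from 0) of the 10 genes in each library, by group; symbols mark the replicate, lines the mean and bars the SD of 3 libraries. Arc and Egr3 lie lower in the saline mutants than in every wild-type library, Junb and Nr4a1 higher, and the open triangle, UNC0642 replicate 3, lies among the mutants for Arc (303) and in the wild-type range for Junb (71.3).

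Arc fell in the saline mutants in recovered reads. Its RPM were 455, 399 and 465 in the wild type, 264, 350 and 309 in mutants given saline, and 373, 228 and 303 with UNC0642. All 6 mutant libraries lay below all 3 wild-type libraries, and the saline mutants lay within the range of the UNC0642 libraries. The share of all genes that separate these 6 from these 3 was not counted. Saline mutant and wild type alone did not overlap for 40.7% of all genes, and UNC0642 and wild type for 17.5%. The group means were 440 ± 35.7, 308 ± 43.3 and 301 ± 72.2 RPM (SD, n = 3 each), so the order was wild type, saline mutant, UNC0642, the last 2 differing by less than their spread. From wild type to saline mutant it differed by -0.52 in log2 (SE 0.15, limma-voom adjusted p = 0.0401), a 1.43-fold lower level. Between UNC0642 and wild type it was -0.57 (SE 0.15, limma-voom adjusted p = 0.14), and between UNC0642 and saline mutant -0.05 (SE 0.15, adjusted p = 0.984). In the deposited values the same 3 differences were -0.37, -0.53 and -0.16 (SE 0.16 each), all of them altered by the equalized averages. With the division as a term in the fit, the difference between saline mutant and wild type was -0.46 (SE 0.26) and that between UNC0642 and wild type -0.53 (SE 0.2), with limma-voom adjusted p of 0.977 and 0.966. UNC0642 replicate 3, the mutant library on the wild-type side of the division, at 303 lay below every wild-type library and inside the range of the saline mutants. The 2 differences with the division as a term are linked to the wild type only through this library. They are therefore no readings separate from its 303 RPM, and the same holds for the other genes.

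Among the EGR genes, Egr3 fell in recovered reads and the other members were not called. Egr3, an EGR factor that acts downstream of BDNF and neuronal activity, had RPM of 340, 327 and 225 in the wild type, 183, 191 and 168 in mutants given saline, and 191, 162 and 231 with UNC0642. The saline mutants lay close together below all wild-type libraries, and UNC0642 replicate 3 reached above the lowest wild-type library. The difference between saline mutant and wild type was -0.7 (SE 0.15, limma-voom adjusted p = 0.0211), a 1.62-fold lower level, and with the division as a term -0.3 (SE 0.23, adjusted p = 0.977). Deposited values of Egr3 were 299, 282 and 189 in the wild type, 213, 222 and 197 in mutants given saline, and 221, 139 and 198 with UNC0642, which overlap between every pair of groups.

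Egr1, the EGR factor most often used as a marker of neuronal activity, had RPM of 397, 359 and 293 in the wild type, 290, 364 and 344 in mutants given saline, and 399, 268 and 336 with UNC0642. The 3 groups overlapped fully, with means of 350 ± 52.5, 333 ± 38.4 and 335 ± 65.4 (SD, n = 3 each), and the difference between saline mutant and wild type was -0.07 (SE 0.14, limma-voom adjusted p = 0.773). Egr2, known also for its role in myelinating Schwann cells, had RPM of 19.4, 16.8 and 18.9 in the wild type, 19.4, 26 and 22 in mutants given saline, and 27.4, 13.8 and 19.4 with UNC0642. UNC0642 replicates 1 and 2 of Egr2 were the highest and the lowest of all 9 libraries, 1.99-fold apart. Egr4 had RPM of 51, 40.6 and 44.4 in the wild type, 50.4, 64 and 48.4 in mutants given saline, and 58.3, 42.1 and 50.1 with UNC0642. The differences of Egr2 and Egr4 between saline mutant and wild type were 0.3 (SE 0.2) and 0.26 (SE 0.14) in reads and -0.14 and -0.02 in deposited values, none called by limma. Of the 4 EGR genes 1 was called, and the sign of Egr2 and Egr4 depended on the values used.

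Of the AP-1 genes, Junb rose in recovered reads and Fos and Fosb were not called. Junb, whose protein pairs with FOS proteins and can restrain JUN, had RPM of 72.6, 52.7 and 70.1 in the wild type, 97.3, 125 and 112 in mutants given saline, and 119, 83.3 and 71.3 with UNC0642. Every saline mutant library lay above every wild-type library, and the UNC0642 libraries ran from the wild-type range to the saline mutant range. The difference between saline mutant and wild type was 0.79 (SE 0.17, limma-voom adjusted p = 0.0211), 1.72-fold, and with the division as a term 0.32 (SE 0.25, adjusted p = 0.977). Between UNC0642 and saline mutant Junb differed by -0.33 (SE 0.16, limma-voom adjusted p = 0.974). Deposited values of Junb were 95.3, 67.7 and 87.8 in the wild type, 76.6, 98.1 and 88.3 in mutants given saline, and 92.8, 106 and 90.8 with UNC0642, with a difference of 0.08 (SE 0.12) between the first 2 groups.

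Fos, the AP-1 subunit most used to map active neurons, had RPM of 46.9, 39 and 44.1 in the wild type, 47.4, 58.3 and 48.4 in mutants given saline, and 62.2, 43.6 and 47.4 with UNC0642. The saline mutants lay above the wild type in every library but by little, with a difference of 0.25 (SE 0.13, limma-voom adjusted p = 0.214). Fosb, whose splice form deltaFosB is long-lived as a protein, had RPM of 34.9, 27.7 and 29.6 in the wild type, 20.1, 30.6 and 19.2 in mutants given saline, and 27.5, 17.1 and 26.6 with UNC0642. The difference for Fosb was -0.41 (SE 0.2, limma-voom adjusted p = 0.171), with saline mutant replicate 2 inside the wild-type range. Gene totals do not separate the splice forms.

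Nr4a1 rose in the saline mutants in recovered reads. It had RPM of 137, 121 and 115 in the wild type, 156, 190 and 182 in mutants given saline, and 200, 135 and 143 with UNC0642. Saline mutant and wild-type libraries did not overlap, while UNC0642 replicate 2 was within the wild-type range and replicate 3 just above it. The difference between saline mutant and wild type was 0.5 (SE 0.13, limma-voom adjusted p = 0.0345), 1.41-fold, and with the division as a term 0.31 (SE 0.22, adjusted p = 0.977). Deposited values of Nr4a1 ranged from 132 to 169 over the 9 libraries, and their difference was 0.02 (SE 0.09).

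Npas4 was not called. It had RPM of 25.4, 32.3 and 53.6 in the wild type, 44.1, 45.1 and 24.7 in mutants given saline, and 35.7, 29.3 and 24.5 with UNC0642. The libraries of the wild type alone spanned 2.11-fold, the widest span within a group among the 10 genes in RPM, and covered nearly the whole range of the other groups. The difference between saline mutant and wild type was 0.05 (SE 0.26, limma-voom adjusted p = 0.917), and that between UNC0642 and saline mutant -0.32 (SE 0.26, adjusted p = 0.974).

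**Figure D2:**
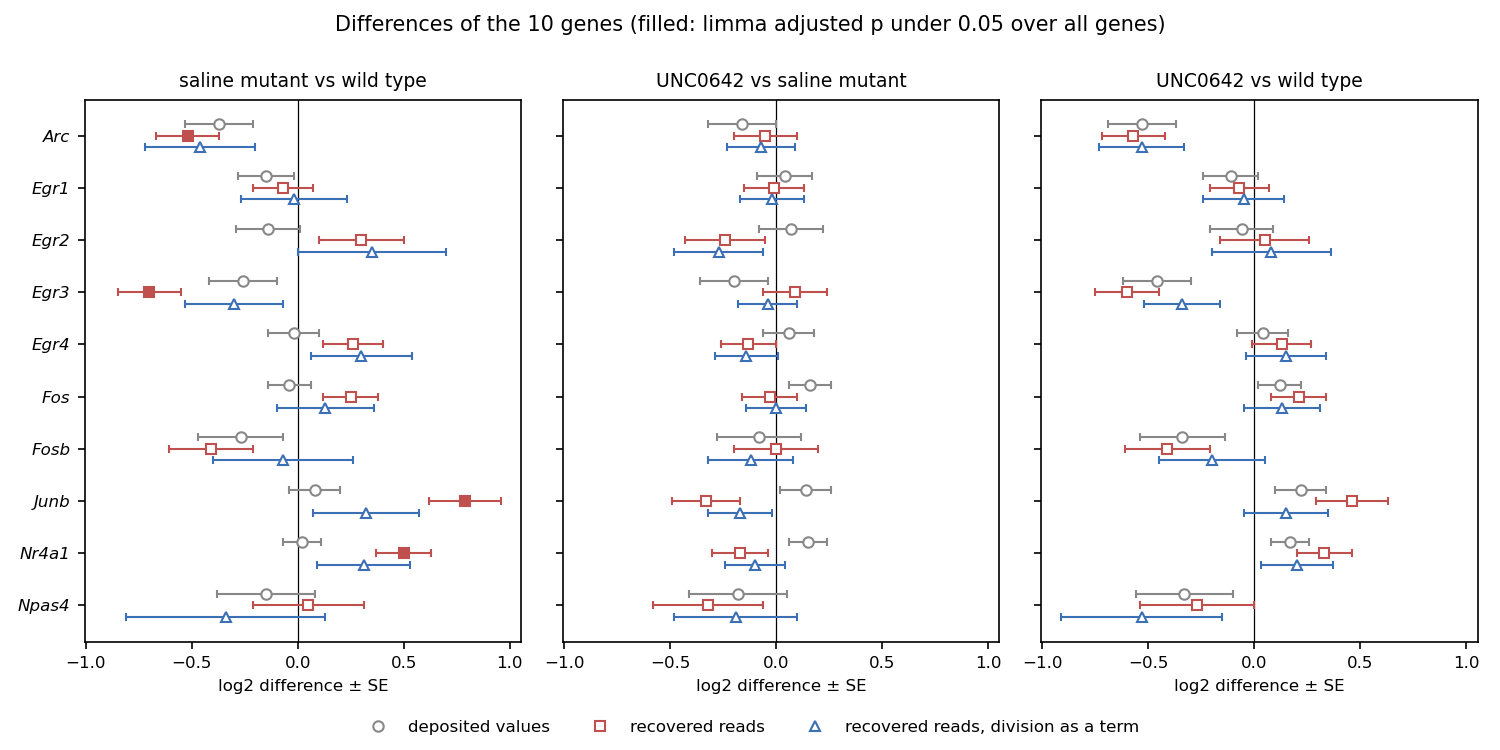
Log2 difference with its SE (horizontal axes) for each of the 10 genes in the 3 comparisons, from deposited values (circles), recovered reads (squares) and recovered reads with the division of the libraries as a term (triangles); filled symbols were called by limma. The 4 filled squares between saline mutant and wild type are Arc (-0.52), Egr3 (-0.7), Junb (0.79) and Nr4a1 (0.5). The triangles for Egr3 and Junb lie nearer 0 than the squares, while that for Arc (-0.46) moves little. Triangles of comparisons with the wild type are linked to it only through UNC0642 replicate 3.

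Counted over the 10 genes, 6 were above 0 and 4 below in the recovered reads between saline mutant and wild type, with a median of 0.15, against a median of -0.01 over all genes. In the deposited values 2 were above and 8 below, with a median of -0.14 against 0. These deposited signs follow from the UNC0642 libraries through the equalized averages and are no second estimate of the genotype difference. Leaving out 1 library moved the deposited count above 0 from 0 (without wild-type replicate 2) to 4 (without wild-type replicate 1) and its median from -0.23 (without saline mutant replicate 2) to -0.05 (without saline mutant replicate 1). In reads the count was 5 or 6 and the median 0.01 (without saline mutant replicate 2) to 0.3 (without saline mutant replicate 3). The groups did not overlap for 6 of the 10 in reads, against 40.7% of all genes, and for 1 of the 10 in deposited values (Arc), against 3.43%. The deposited share also comes after the adjustment and is no background for Arc. With the division as a term, 5 were above 0 and 5 below, and 0 of the 10 were called, as were 0 of all genes (percent called 0; 711 genes, or 4.92%, at an unadjusted p under 0.05, by limma-voom). Between UNC0642 and saline mutant, 0 of the 10 were called in reads, as were 0 of all genes (percent called 0; 536 genes, 3.71%, at an unadjusted p under 0.05), and the groups did not overlap for 0 of the 10, against 9.69% of all genes. Between UNC0642 and wild type, 0 of the 10 were called, against 0.0554% of all genes, and the groups did not overlap for Arc and Fosb, against 17.5%. In bulk tissue, fewer expressing cells and less RNA per cell cannot be told apart.

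The 4 calls in reads depended on single libraries. The call of Arc was lost without wild-type replicate 1 (adjusted p = 0.0709), 2 (0.104) or 3 (0.11) and without saline mutant replicate 1 (0.156), 2 (0.0579) or 3 (0.113), by limma-voom. Egr3 was not called without wild-type replicate 2 (0.104) or saline mutant replicates 1 (0.0896), 2 (0.0548) or 3 (0.0884), and Junb without the same 4 libraries (0.104, 0.0836, 0.0602 and 0.0852). Nr4a1 was not called without wild-type replicates 2 (0.124) or 3 (0.102) or saline mutant replicates 1 (0.0896), 2 (0.0948) or 3 (0.113). The signs were the same in each of these fits, and the number of genes called over the whole table ran from 13 to 3550 in them, with wild-type replicate 2 and UNC0642 replicate 3 left out, respectively. Without UNC0642 replicate 3, Arc (-0.59, adjusted p = 0.0206), Egr3 (-0.74, 0.00445) and Junb (0.62, 0.0166) were also called between UNC0642 and wild type by limma-voom. That fit called 2959 of the 14444 genes in this comparison, and the members' calls are to be read against that share. Egr3 was also called there without wild-type replicate 3 (-0.79, limma-voom adjusted p = 0.0281), where 23 genes were called.

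Where each UNC0642 library lay between the other groups differed among the 4 called genes; this was looked at after the values were seen. Of the 1725 genes called between saline mutant and wild type, UNC0642 replicate 3 was nearer to the wild-type mean than to the saline mutant mean for 80.3%, replicate 1 for 7.83% and replicate 2 for 9.57%, by distance on the log2 scale. Egr3, Junb and Nr4a1 were among the former for replicate 3, but Arc in that library was nearer to the saline mutants. Junb and Nr4a1 were nearer to the wild type in replicate 2 as well. Arc in replicate 1, at 373 RPM, lay about midway between the group means of 440 and 308. Replicate 3 was also set against the wild type alone, as a lone sample assumed to vary like the wild-type libraries. It differed by -0.54 for Arc (SE 0.13), -0.34 for Egr3 (SE 0.21), 0.15 for Junb (SE 0.18) and 0.2 for Nr4a1 (SE 0.13). With 1 library no call is made. The fit with the division as a term reads its differences between UNC0642 and wild type from this same library.

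Ratios of reads within a library, which do not depend on how libraries are scaled, are given for pairs chosen after their values were seen. Junb reads over Arc reads were 0.159, 0.132 and 0.151 in the wild type, 0.369, 0.357 and 0.361 in mutants given saline, and 0.318, 0.365 and 0.236 with UNC0642. The saline mutants were nearly equal, and UNC0642 replicate 3 lay between the groups. Fosb over Fos was 0.743, 0.71 and 0.67 in the wild type, 0.424, 0.525 and 0.397 in mutants given saline, and 0.443, 0.393 and 0.562 with UNC0642. Every mutant library lay below every wild-type library in that ratio, although neither gene was called alone. Egr3 over Egr1 was 0.855, 0.911 and 0.767 in the wild type and 0.478 to 0.687 in the 6 mutant libraries, again without overlap. How many other pairs of genes separate the libraries in this way was not counted. Taken singly, 40.7% of all genes did not overlap between saline mutant and wild type in RPM. The lack of overlap in pairs so chosen is thus no result about them.

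**Figure D3:**
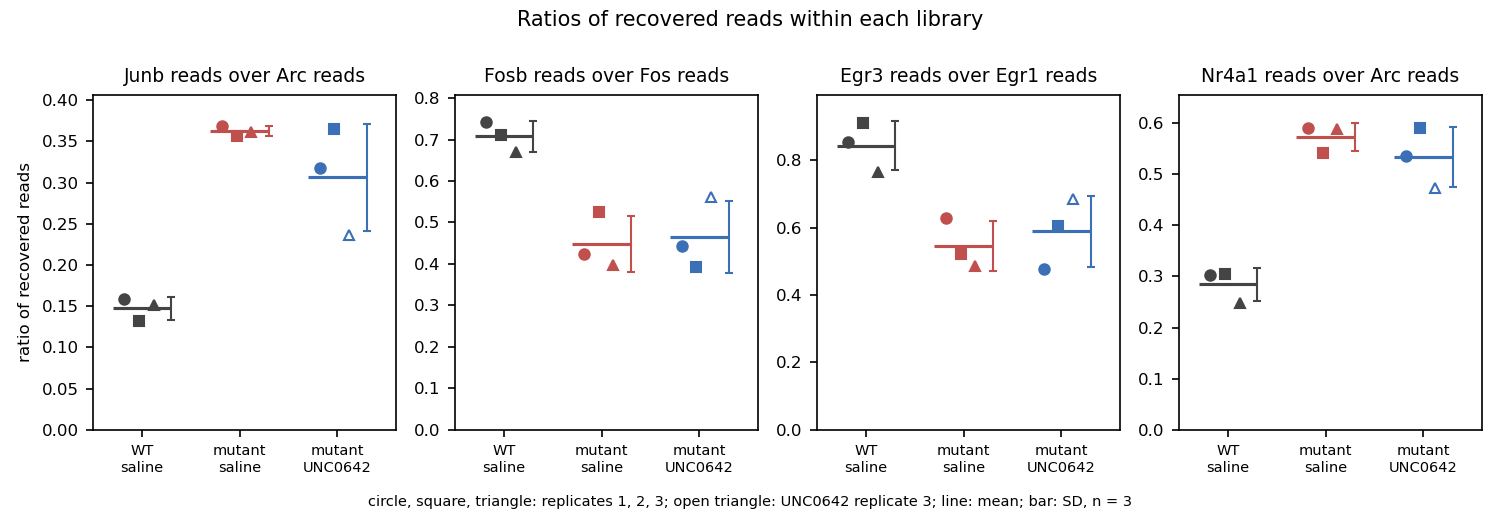
Ratio of recovered reads of 2 genes within each library (vertical axes, from 0), by group, with the mean and the SD of 3 libraries. Junb over Arc lies between 0.132 and 0.159 in the wild type and between 0.236 and 0.369 in the mutant libraries, with UNC0642 replicate 3 (open triangle) the lowest of them.

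Libraries of a group differed from each other in the same direction for most of the 10 genes, whatever their group. This was looked at after the values were seen. Saline mutant replicate 2 was the highest of its group for 10 of 10, against 36% of all genes in RPM. UNC0642 replicate 1 was the highest of its group for 9 of 10, the exception being Egr3, against 31.3%, and UNC0642 replicate 2 the lowest for 8 of 10, against 25.8%. Wild-type replicate 1 was the highest for 8 of 10, the exceptions being Arc and Npas4, against 27.7%. The lists of 17 other rapid transcription factors and 27 rapid effector genes, described below, were less uniform. Saline mutant replicate 2 was the highest for 8 and 6 of them, UNC0642 replicate 1 for 9 and 16, and wild-type replicate 1 for 6 and 6. In UNC0642 replicate 1 the deviations from the group mean, on the log2 scale, ran from 0.23 to 0.48 for the 9 genes that were highest there, and in replicate 2 Egr2 and Fosb deviated by -0.48 and -0.43. Recovered reads were 15227237 in saline mutant replicate 2, 12233543 in UNC0642 replicate 1 and 16165483 in UNC0642 replicate 2, and the part of depth was not tested.

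**Figure D4:**
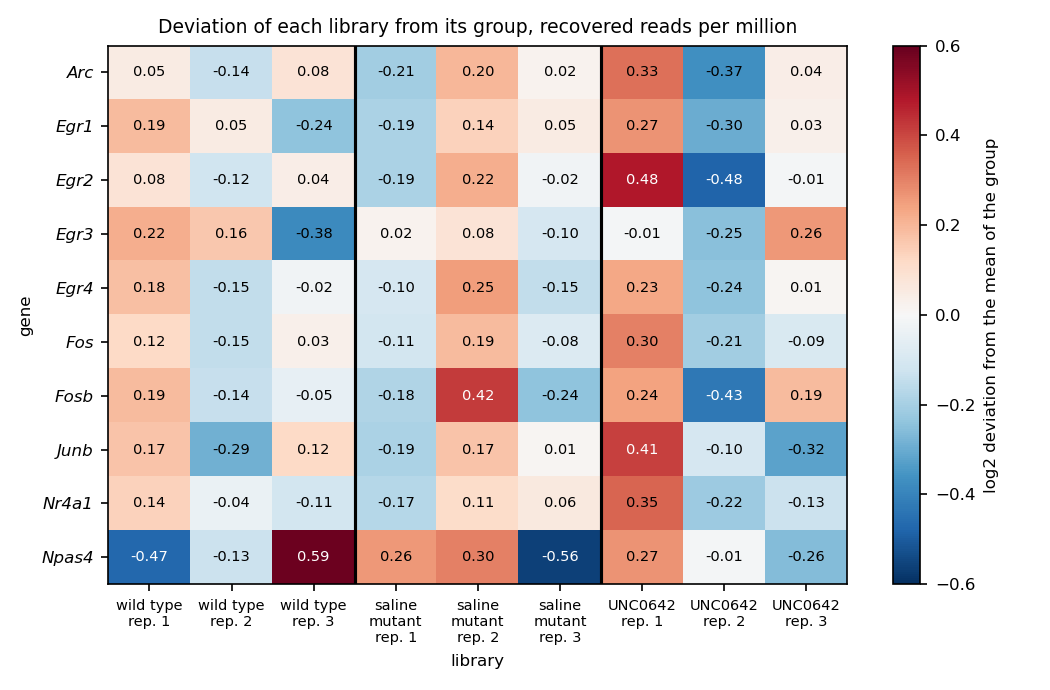
Log2 deviation of each library (columns) from the mean of its group for each of the 10 genes (rows), in RPM; red is above and blue below the group mean. Saline mutant replicate 2 and UNC0642 replicate 1 are red for nearly every gene, UNC0642 replicate 2 is blue, and among the wild-type libraries Npas4 is low in replicate 1 (-0.47), where the other 9 genes are above their mean.

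Correlations over the 9 libraries were computed on log2(deposited value + 0.5) for the 45 pairs. The median Pearson r was 0.5, with 34 pairs positive and a range from -0.67 (Nr4a1 with Npas4) to 0.89 (Egr2 with Fosb). By exact two-sided permutation of Pearson's r 16 pairs were under an unadjusted 0.05, and 0 of the 45 passed after Benjamini-Hochberg adjustment, for Pearson's r and for Spearman's rho. Permutation treats the libraries as exchangeable, which libraries of a group or of an equalized set are not, so these p-values only describe. Arc was most correlated with Fosb (r = 0.87, rho = 0.83, exact permutation p = 0.00254 and 0.00827, adjusted 0.0571 and 0.0744), and r was 0.63 without the 2 libraries farthest from the median of Arc, UNC0642 replicate 2 and saline mutant replicate 1. Its correlation with Egr2 (r = 0.77, rho = 0.73, exact permutation p = 0.015 and 0.0311, adjusted 0.0895 and 0.1) fell to 0.25 without those 2. They are the lowest in Arc, so leaving them out also narrows its range. As deviations from the group mean, r of Arc with Egr2 was 0.92, and 0.98 so in reads. Junb (r = -0.22) and Nr4a1 (r = -0.03) were near 0 with Arc. In recovered reads as they stand, 33 of the 45 pairs were positive with a median r of 0.32, and Arc had r of -0.31 with Junb and -0.23 with Nr4a1, over libraries that fall into the sides of the division. With each library taken as its deviation from the mean of its side, a choice made after seeing the data, 41 of the 45 pairs were positive with a median r of 0.66, and Arc with Junb was at 0.58 and with Nr4a1 at 0.47. Each side holds fewer than 6 libraries, so no test within a side was made.

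**Figure D5:**
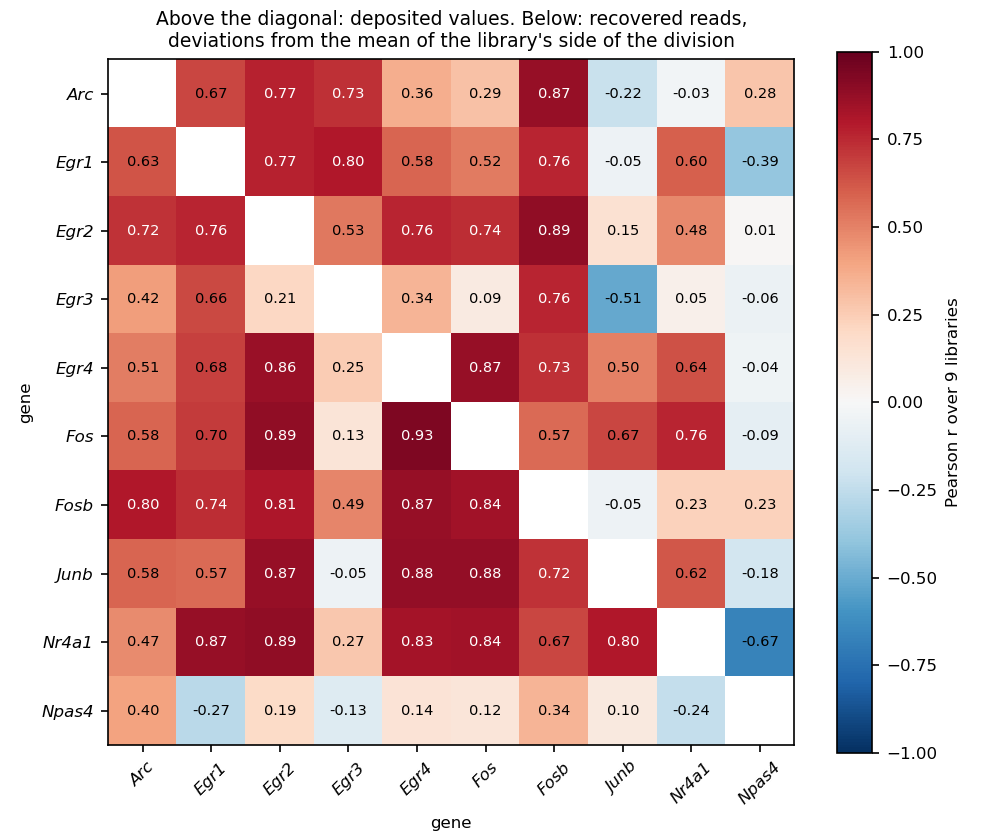
Pearson r of each pair of the 10 genes over the 9 libraries, from deposited values above the diagonal and, below it, from recovered reads as deviations from the mean of the library's side of the division. Npas4 lies between -0.67 and 0.28 with the other genes above the diagonal, and 41 of the 45 pairs below it are positive, with a median of 0.66.

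The genes most like Arc outside the 10, by Pearson r of the deposited values over 9 libraries among 14367 genes, were Tanc1 (0.976), Cbfa2t3 (0.962), Abcg1 (0.956), Pds5a (0.949), Rhot2 (0.944), Sall2 (0.942), Plekhg5 (0.942), Lrch1 (0.941), Ccdc6 (0.94) and Taf1c (0.94). Tanc1 encodes a postsynaptic scaffold protein and Abcg1 a cholesterol transporter. They are the highest of many r over only 9 libraries and carry no test. Those most like the mean profile of the 10 were Flt4, Asxl1, Txnrd1, Nkd2, Zfp317, Pi15, Rasal3, Hmgcll1, Nr4a3 and Rsbn1, at 0.887 to 0.925. In recovered reads the r of the genes most like Arc were 0.7 to 0.95, while those of the genes most like the mean profile ran from -0.04 (Rsbn1) to 0.93 (Nkd2), with Pi15 at 0.04 and Rasal3 at 0.03. Nr4a3 (r = 0.891, and 0.42 in reads), an immediate early gene related to Nr4a1, is in the list of other rapid factors below. Of the 10 genes themselves, Egr2 (0.93) and Fosb (0.92) followed the mean profile most closely and Npas4 (0.01) least.

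Other genes of the same response were read from lists, whose counts are to be set beside the 11.9% of all genes called between saline mutant and wild type in reads (5.13% higher, 6.81% lower). Of 17 other rapid transcription factors measured, 1 was called between saline mutant and wild type in reads: Ier2, an early factor induced with Fos, rose from 8.82 to 10.2 RPM in the wild type to 15.1 to 19.5 in the saline mutants (log2 difference 0.83, SE 0.2, limma-voom adjusted p = 0.0283). Klf4 had -1.29 (SE 0.42, adjusted p = 0.058). The list had 6 above 0 and 11 below, with a median of -0.17. Of 27 rapid effector genes, 2 rose and 2 fell, a share near that of all genes. Dusp1, a phosphatase that switches off MAP kinases, lay at 33.4 to 35.1 in the wild type and 56.1 to 59.5 in the saline mutants (0.75, SE 0.16, limma-voom adjusted p = 0.0206), and Btg2, which restrains cell division, at 9.12 to 22.3 and 24.3 to 37.3 (1.11, SE 0.28, adjusted p = 0.0306). Homer1, a postsynaptic scaffold with an activity-induced short form, lay at 196 to 289 and 138 to 150 (-0.81, SE 0.16, limma-voom adjusted p = 0.0199), and Ier5 at 84.9 to 133 and 80.9 to 81.8 (-0.49, SE 0.14, adjusted p = 0.0388).

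Of 28 upstream regulators measured, 0 rose and 3 fell between saline mutant and wild type in reads, against 5.13% and 6.81% of all genes. Rps6ka3, the kinase RSK2 of the MAP kinase pathway, lay at 101 to 110 RPM in the wild type and 69 to 77 in the saline mutants (-0.52, SE 0.09, limma-voom adjusted p = 0.0156). The acetyltransferases and coactivators of CREB, Crebbp and Ep300, had -0.48 (SE 0.13, adjusted p = 0.0333) and -0.4 (SE 0.12, adjusted p = 0.0455) by limma-voom. Of 8 corepressors and partners of the members, among them the EGR corepressors Nab1 and Nab2 and the AP-1 partners Jun and Jund, 0 were called, and the smallest p was that of Rxrb (0.18, SE 0.08, limma-voom adjusted p = 0.127). Of 14 genes for partners and turnover of Arc, Ube3a, a ubiquitin ligase, fell (-0.35, SE 0.1, limma-voom adjusted p = 0.0451) and 0 rose. In deposited values, and in reads with the division as a term, 0 genes of these 5 lists were called in any comparison by limma, and in reads 0 were called between UNC0642 and either other group.

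Summed markers of other cells are given as ranges in the recovered reads. The 6 oligodendrocyte markers summed to 2850 to 4730 RPM in the wild type, 1470 to 3370 in the saline mutants and 2480 to 4760 under UNC0642, with 0 of 6 called. Between saline mutant and wild type all 6 were below 0, with a median of -0.69, and of -0.68 with the division as a term. The 7 astrocyte markers summed to 4690 to 6330, 3800 to 4200 and 3420 to 6120. The 8 endothelial and mural markers summed to 216 to 272, 156 to 200 and 179 to 211, of which 2 were called lower in the saline mutants. Against the wild type, 6 astrocyte markers were below 0 and 1 above in the saline mutants. Of the endothelial and mural markers 7 were below and 1 above. The 9 meningeal fibroblast markers summed to 98.3 to 166, 143 to 169 and 111 to 247, with 9 of 9 higher in the saline mutants by estimate and 0 called. The 7 excitatory neuron markers summed to 7630 to 8180, 8310 to 8730 and 7740 to 8020. Between saline mutant and wild type 4 of them were above 0 and 3 below, with 0 called. Camk2a alone, a large part of each sum, lay at 4450 to 5360, 4780 to 5290 and 4090 to 4870. The 3 hippocampal markers measured (Dsp and C1ql2 are not in the table) summed to 106 to 129, 150 to 161 and 134 to 147, of which 1 was called higher in the saline mutants. Of the 6 inhibitory neuron markers, summed at 827 to 897, 803 to 857 and 799 to 916, 1 was called higher and 1 lower. Called counts of markers are to be read against the 11.9% of all genes called between saline mutant and wild type. The part of the markers in the differences of the 10 genes was not tested.

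Shank3 itself had RPM of 295, 309 and 357 in the wild type, 337, 349 and 321 in mutants given saline, and 294, 298 and 319 with UNC0642, so the gene total did not fall with the genotype label; without the allele this is no check of it. Ehmt1 and Ehmt2 were not called in any comparison, with Ehmt2 at 0.22 (SE 0.08, limma-voom adjusted p = 0.0709) between saline mutant and wild type in reads.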

How the data were processed

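RNA of 9 prefrontal cortex libraries, 3 groups of 3, was isolated in Trizol, and per the labels' protocols the stranded libraries were depleted of ribosomal RNA. The submitters' processing notes name cutadapt, TopHat2, HTSeq and mm9; no source used here gives versions or how strand was set, so reads of overlapping antisense genes may be included. The deposited values are a signal per gene resembling CPM, log-transformed, adjusted between 2 sets of libraries and transformed back; this form was found from the values and is recorded in no header or label, and sums were 975390 to 1028773 per library. The tests had been planned for values on a CPM scale and were kept for the deposited signal. The 9 single-library files equal the matrix, and 0 columns were left unused.

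Log2(value + 0.5) of all 14444 genes was fitted with limma 3.58.1 (R 4.3.3), all 9 libraries together, Benjamini-Hochberg adjusted, with calls under 0.05. Fold changes on this scale understate low genes. Whole reads were solved for from the deposited signal (14444 of 14444 genes within 0.002 of a whole number) and fitted with limma-voom as an alternative, without and with the division of the libraries as a term. Correlations used exact permutation in Python 3.11.15 with numpy 2.4.6. The scripts were tested on simulated data. Named genes were the 10 members, for each list and comparison the 2 genes of smallest p, the called list genes and the 10 genes most alike to Arc and to the members' mean. The members and lists were chosen with earlier results of these data known. Alternatives were the pseudocount (0.1 and 1), a filter on low values, median-of-ratios factors, only the 2 groups compared, the replicate number as a block, and each library left out.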

Additional observations from a re-analysis of the deposited data

How the results depend on the processing

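Deposited values and recovered reads gave different signs for members without a call. For saline mutant against wild type, reads gave Egr2 0.3, Egr4 0.26, Fos 0.25 and Npas4 0.05 with 1725 genes called, against negative differences and 0 genes in deposited values. Median-of-ratios factors gave Egr2 0.31, Egr4 0.27, Fos 0.26, Npas4 0.05 and 1797 genes, and the division as a term Egr2 0.35, Egr4 0.3 and Fos 0.13. Between UNC0642 and saline mutant, reads gave Egr1 -0.01, Egr2 -0.24, Egr3 0.09, Egr4 -0.13, Fos -0.03, Junb -0.33 and Nr4a1 -0.17; median-of-ratios factors gave -0.02, -0.26, 0.08, -0.14, -0.05, -0.34 and -0.18 in that order. The division as a term gave Egr1 -0.02, Egr2 -0.27, Egr4 -0.14, Junb -0.17 and Nr4a1 -0.1, and mutant libraries on 1 side gave Egr1 -0.04, Egr2 -0.27, Egr4 -0.15, Fos -0.0, Junb -0.18 and Nr4a1 -0.12. Between UNC0642 and wild type, Egr2 was 0.05 in reads, 0.05 with median-of-ratios factors, 0.08 with the division and 0.08 on the wild-type side, with 8, 10, 3 and 2 genes called. That last alternative, all alternatives run on reads alone and the side-centred r were chosen after seeing the data; UNC0642 is there a lone sample assumed to vary like the wild type. For saline mutant against wild type, the deposited signs follow from the equalized averages and the UNC0642 libraries. UNC0642 replicates 2 and 3 were equalized with the wild type, and replicate 1 with the saline mutants. The adjustment thus shifted the deposited differences of both UNC0642 comparisons too, and their signs are no separate reading. Other contributions to the sign changes were not tested.

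With only the 2 groups compared, the saline mutant and wild-type comparison called 5 genes in deposited values and 3117 in reads, and 0 in reads between UNC0642 and wild type. With the division as a term, reads gave 0 and 3 genes, Npas4 -0.34 between saline mutant and wild type, and Egr3 -0.04 and Fos 0.0 between UNC0642 and saline mutant. The labels state no pairing by replicate number, and r over 3 libraries per group cannot decide it. Same-numbered libraries had r of -0.19 to 0.31 in deposited values and -0.16 to 0.33 in reads, and differently numbered ones -0.26 to 0.27 and -0.32 to 0.21. The highest r in both was that of wild-type replicate 3 with UNC0642 replicate 3. The replicate block called 0 genes in deposited values in each comparison and 2442, 0 and 36 in reads, against 1725, 0 and 8 without it. It gave Fosb 0.01 between UNC0642 and saline mutant. The r of Arc with Junb and Nr4a1 was 0.16 and 0.49 as deviations from the group mean, 0.71 and 0.82 so in reads, and 0.58 and 0.47 from the side's mean.

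Leaving out each library in turn, deposited values gave between saline mutant and wild type Egr4 -0.14 to 0.09, Fos -0.13 to 0.03, Junb -0.07 to 0.18, Nr4a1 -0.06 to 0.1 and Npas4 -0.36 to 0.13. Between UNC0642 and saline mutant they gave Arc -0.38 to 0.05, Egr1 -0.07 to 0.18, Egr2 -0.03 to 0.24, Egr4 -0.01 to 0.18 and Fosb -0.24 to 0.16. Between UNC0642 and wild type they gave 0 to 4 genes, the most without UNC0642 replicate 1, Egr1 -0.25 to 0.03, Egr2 -0.17 to 0.1 and Egr4 -0.04 to 0.14. In reads, 13 to 3550 genes were called between saline mutant and wild type, with Egr1 -0.18 to 0.03 and Npas4 -0.18 to 0.34. Between UNC0642 and saline mutant, reads gave Arc -0.22 to 0.13, Egr1 -0.14 to 0.14, Egr2 -0.46 to 0.02, Egr3 -0.04 to 0.22, Egr4 -0.23 to 0.0, Fos -0.17 to 0.07 and Fosb -0.13 to 0.24. Between UNC0642 and wild type, 1 to 2959 genes were called, the most without UNC0642 replicate 3, with Egr1 -0.21 to 0.08, Egr2 -0.17 to 0.31 and Npas4 -0.5 to 0.02. The r with Arc ran from -0.4 to 0.24 for Junb and -0.27 to 0.24 for Nr4a1. Over all alternatives, 486 of 560 member results kept sign and side of the threshold of the main fit of deposited values. Fits on reads are among these 560. Set against the main fit on reads, 365 of 420 did so. Leaving out a library outside a comparison hardly changes its difference, and median-of-ratios factors of deposited values were 0.997 to 1. Such results had little room to move, so the counts are no measure of robustness.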
